A study of Mus musculus with 8 samples.

Results

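The genes described here encode IκB proteins, which bind the transcription factor NF-kB and inhibit it or modify its activity, and proteins that end its activation. They were chosen by name as 10 of the 24421 gene symbols in the count table: Nfkbia, Nfkbib, Nfkbie, Nfkbid, Nfkbiz, Bcl3, Tnfaip3, Tnip1, Tnip3 and Cyld. All 10 passed the filter on low counts (at least 1 count in at least 2 of 8 libraries), as did 12254 genes in all, and Tnip3 passed it only through the stimulated libraries. The rule itself is a list of names and uses no measured value, but the list was drawn up with earlier results of these data known.

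RNA was sequenced from bone marrow neutrophils that had been isolated magnetically from 8-week-old female C57BL/6 mice. The mice were wild type (WT) or Padi4 knockout (Padi4 KO), a line in which exon 1 of Padi4, the gene for the citrullinating enzyme PAD4, had been removed. Cells of each genotype were left unstimulated or were given R848, a synthetic agonist of TLR7, at 1 µg/ml for 6 h, so that there were 4 groups of 2 libraries, and the comparisons ask how the R848 response depended on PAD4. The sample titles give 0 h for the unstimulated cells and the methods 6 h, so the R848 response may include the effect of culture, and these cannot be told apart. The methods state that samples were run as duplicates, and neither they nor the labels say whether these came from separate mice, so p-values measure only the spread between libraries, which may be technical.

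NF-kB dimers are held in the cytoplasm by the classical IκB proteins (IκBα, IκBβ and IκBε), which are phosphorylated by the IKK complex and degraded when a Toll-like receptor is engaged. Many of the proteins that stop this signal are themselves encoded by NF-kB target genes, which forms negative feedback loops: IκBα re-enters the nucleus and strips NF-kB from DNA, while A20 and its binding partners edit or bind the ubiquitin chains on which the kinases assemble. The atypical IκB proteins IκBζ, Bcl-3 and IκBNS act in the nucleus, where they stimulate or repress particular targets. In neutrophils these loops limit the output of cytokines and chemokines.

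The promoter sequences are shown because these genes are known as targets of the factor that they regulate. Windows from 250 bases before to 50 bases after each annotated start were taken from RefSeq (GRCm38.p6) and searched on both strands for the NF-kB consensus, a 10-base motif that begins with GG and ends with CC. A window was found for 9 of the 10 genes (12 windows in all, as Nfkbid and Tnfaip3 have several starts). The set of windows used here had no entry for Nfkbiz, so its promoter was not searched. The consensus was present for 8 of these 9 genes, against 5.14% of all 27025 genes with a window and 12.4% of the 677 genes with a window that were called higher after R848 in WT. It was absent from the window of Nfkbib (chr7:28766595-28766894, minus strand). That window is at a RefSeq start inside the GENCODE gene model used here for the position of Nfkbib, and the upstream end of that model was not searched. A match describes the letters of the window and does not show that the factor binds there.

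The whole windows of the genes for IκBα, A20, ABIN1 and Bcl-3 are given 5′ to 3′ on the gene's strand, with the bases that match the consensus in capitals. They lie at chr12:55492598-55492897 (Nfkbia, minus strand), chr10:19015361-19015660 (Tnfaip3, first start, minus strand), chr11:54962891-54963190 (Tnip1, minus strand) and chr7:19822706-19823005 (Bcl3, minus strand).
Nfkbia: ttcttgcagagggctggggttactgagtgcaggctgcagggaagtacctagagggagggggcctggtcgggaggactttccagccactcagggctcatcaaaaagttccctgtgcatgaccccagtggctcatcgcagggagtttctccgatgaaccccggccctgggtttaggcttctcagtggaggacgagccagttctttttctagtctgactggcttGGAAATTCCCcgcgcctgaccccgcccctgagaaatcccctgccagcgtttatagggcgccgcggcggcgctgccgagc
Tnfaip3: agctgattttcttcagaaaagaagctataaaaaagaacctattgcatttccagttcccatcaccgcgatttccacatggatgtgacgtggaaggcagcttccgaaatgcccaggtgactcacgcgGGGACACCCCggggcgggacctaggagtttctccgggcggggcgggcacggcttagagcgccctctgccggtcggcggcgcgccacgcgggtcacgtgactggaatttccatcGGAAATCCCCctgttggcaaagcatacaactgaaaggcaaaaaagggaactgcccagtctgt
Tnip1: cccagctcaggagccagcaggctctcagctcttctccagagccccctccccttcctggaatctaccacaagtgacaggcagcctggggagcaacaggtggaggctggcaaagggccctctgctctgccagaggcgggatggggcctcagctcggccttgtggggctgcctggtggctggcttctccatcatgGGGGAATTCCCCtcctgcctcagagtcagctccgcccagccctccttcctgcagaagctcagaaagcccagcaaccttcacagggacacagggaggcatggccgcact
Bcl3: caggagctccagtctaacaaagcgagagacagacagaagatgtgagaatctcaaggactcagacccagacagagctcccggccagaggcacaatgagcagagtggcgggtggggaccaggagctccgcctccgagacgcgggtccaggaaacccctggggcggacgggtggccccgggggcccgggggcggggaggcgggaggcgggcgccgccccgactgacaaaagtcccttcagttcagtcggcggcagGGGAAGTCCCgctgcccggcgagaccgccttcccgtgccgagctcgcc

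With the start base counted as position 1 and the base before it as -1, the match of Nfkbia covered positions -29 to -20. The Tnfaip3 window held a match at -125 to -116 and another at -12 to -3. In Tnip1, 3 overlapping matches formed a single run from -58 to -47, and in Bcl3 the match lay just after the start, at 3 to 12. For the other 4 genes only the match and 15 bases on either side are given. Those of Nfkbid (second start, match at -226 to -217), Nfkbie (-106 to -97), Tnip3 (-54 to -45) and Cyld (-155 to -146) lie in the windows chr7:30422156-30422455, chr17:45555450-45555749, chr6:65590148-65590447 and chr8:88696778-88697077, all on the plus strand. The Tnip3 window is at the RefSeq start, which lies inside the longer gene model of GENCODE used here for the position and exon length of Tnip3. Nfkbid held another match at -181 to -172 of the same window. Cyld is thus among the genes with a match, although its response to R848 was not called.
Nfkbid: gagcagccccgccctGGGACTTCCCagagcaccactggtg
Nfkbie: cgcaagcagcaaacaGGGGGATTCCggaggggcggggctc
Tnip3: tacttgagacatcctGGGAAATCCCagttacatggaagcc
Cyld: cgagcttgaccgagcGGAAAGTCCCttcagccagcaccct

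**Figure D1:**
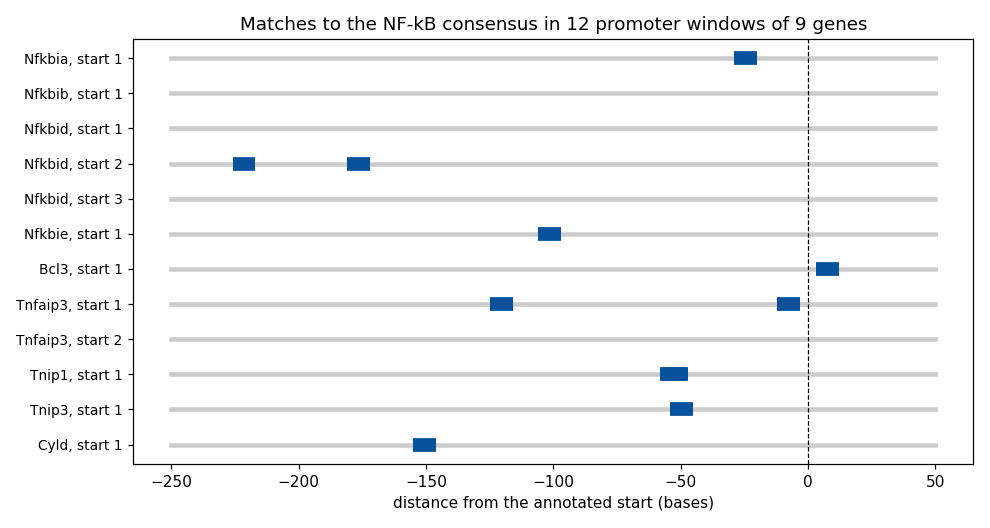
Matches to the NF-kB consensus in the 12 promoter windows of 9 genes, drawn by distance from the annotated start in bases. Marks show each match, and 8 of the 12 windows hold at least 1, between position -226 in Nfkbid and position 12 in Bcl3.

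The libraries held 562446 to 1177972 counts on genes, so that 3 counts, taken as the floor, corresponded to 2.18 to 6.11 CPM in single libraries. Levels are given as CPM, counts divided by the library's total and brought to a common scale with TMM factors. Padi4 was at 912 and 910 CPM in unstimulated WT and at 45.2 and 39.2 CPM in unstimulated Padi4 KO, and at 338 and 414 against 30.2 and 19.3 CPM after R848, in the direction of the labels. Of the 12 neutrophil markers listed, all 11 in the table were detected. Their summed level, over library totals, was 119459 to 124880 CPM in unstimulated WT and 98859.5 to 100384 in unstimulated Padi4 KO, and 100116 to 114914 against 83205.9 to 84526.6 after R848. Markers of some other cell types also moved with genotype. Between the genotypes none of 4 tested lymphocyte markers was called in either treatment. Of 5 tested eosinophil and basophil markers, none was called before stimulation and 1 was called lower in Padi4 KO after R848. The shares over all genes are given below. The 7 detected erythroid markers summed to 43.7 to 51.6 CPM in unstimulated WT, 472 to 484 in unstimulated Padi4 KO, 9.83 to 10.5 in WT after R848 and 748 to 762 in Padi4 KO after R848, with the 4 hemoglobin genes at 0 in every library. The 9 monocyte markers summed to 473 to 533, 1188 to 1213, 875 to 1012 and 1351 to 1394 CPM in the same order, and the 8 stromal and endothelial markers to 229 to 289, 537 to 681, 133 to 138 and 89.9 to 90.8 CPM. Of the 6 stromal and endothelial markers tested, 2 were called higher and 1 lower in unstimulated Padi4 KO. After R848 only 1 was called, in the lower direction, so these sums do not stand for each gene. The part of these shifts in the genotype differences given below was not tested, and in these bulk samples fewer cells of a type and less RNA per cell cannot be told apart.

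R848 raised 8 of the 9 genes that had counts in unstimulated WT neutrophils, where 7.17% of all tested genes were called higher, and it lowered none, where 10.8% were called lower. In Padi4 KO neutrophils these 8 were again higher, where 8.07% of all tested genes were called higher, and none was lower, where 8.84% were. Responses were called from edgeR's quasi-likelihood fit at a p-value below 0.1 after Benjamini-Hochberg adjustment over the 12254 genes, together with a change of more than 2-fold. Across the 9 genes the log2 fold change had a median of 2.61 in WT and 2.57 in Padi4 KO (over 10 genes, with Tnip3 at its bound, 2.54 and 2.58), beside medians of -0.074 and 0.077 over the 6912 genes with a mean of at least 10 counts. The exception in both genotypes was Cyld. Tnip3 is left out of these counts, since it passed the filter only through the stimulated libraries.

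**Figure D2:**
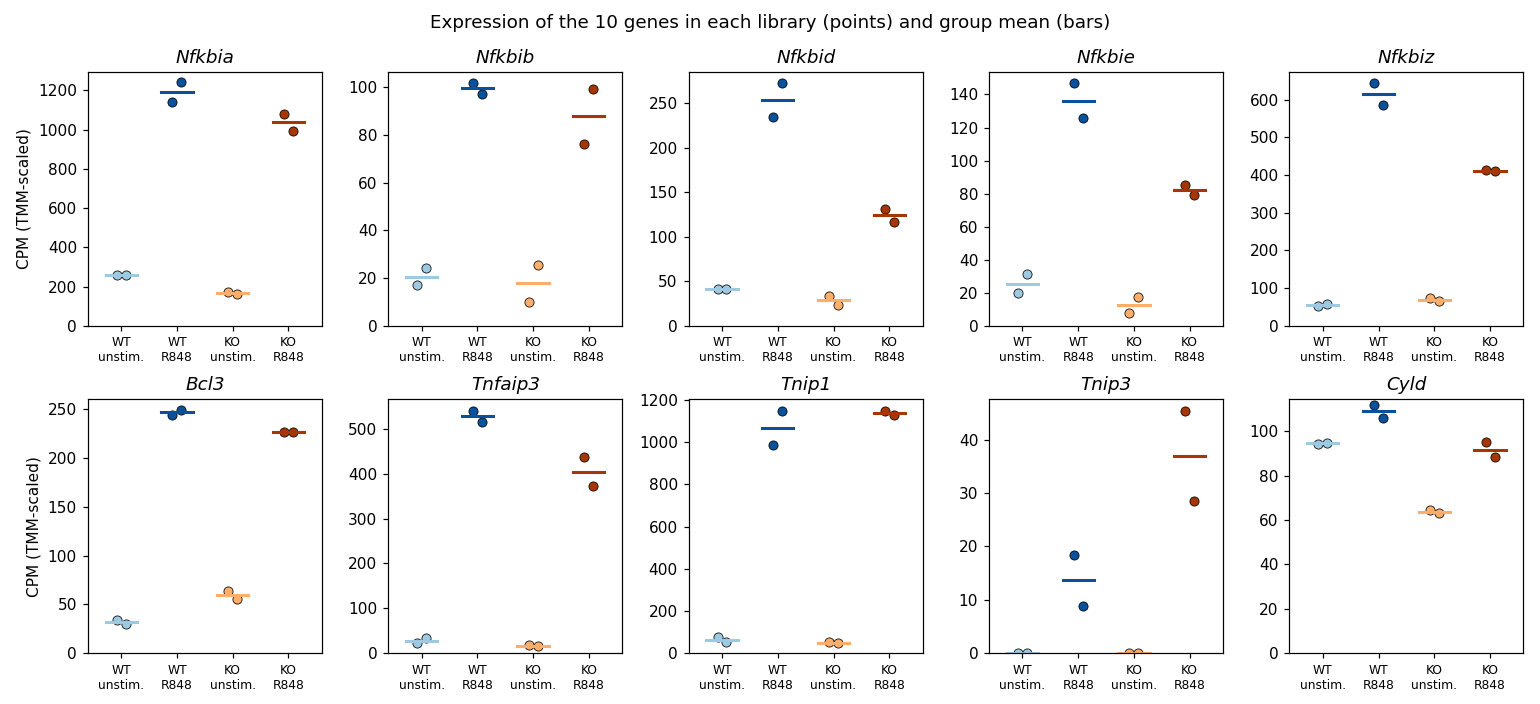
Level of each of the 10 genes in CPM in each of the 8 libraries, 1 panel a gene, with points for libraries and bars for the group means. In 8 panels both stimulated libraries of a genotype lie above both of its unstimulated libraries by more than 2-fold. Cyld does not reach this, and Tnip3 is at 0 in all 4 unstimulated libraries, so that no fold can be read for it.

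All 3 classical IκB genes rose in both genotypes. Nfkbia, on chromosome 12 (chr12:55489410-55492647), encodes IκBα, an inhibitor that is quickly resynthesised after NF-kB is activated. It was at 260 and 259 CPM in unstimulated WT and at 1141 and 1241 CPM after R848, and at 174 and 163 against 1082 and 993 CPM in Padi4 KO. The stimulated libraries lay far above the unstimulated ones in both genotypes, and the unstimulated Padi4 KO libraries lay lowest. The log2 fold change was 2.20 (SE 0.11, adjusted p = 6.46e-102) in WT and 2.63 (SE 0.099, adjusted p = 2.45e-168) in Padi4 KO.

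Nfkbib (chr7:28758251-28767512) encodes IκBβ, which is degraded and replaced more slowly. Its level was 17.01 and 24.2 CPM in unstimulated WT, 102 and 97.4 CPM after R848, 10.2 and 25.4 CPM in unstimulated Padi4 KO and 76.4 and 99.3 CPM in Padi4 KO after R848. The unstimulated libraries held only 9 to 35 counts, and the genotypes overlapped in both treatments. The log2 fold changes were 2.28 (SE 0.33, adjusted p = 4.32e-14) and 2.17 (SE 0.25, adjusted p = 8.69e-22), the latter 3.09 without Padi4 KO unstimulated replicate 2. Exons of Ccer2 on the opposite strand cover 14.5% of the exon bases of Nfkbib, and as the library kit does not mark strand, their reads cannot be told apart there.

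Nfkbie (chr17:45555703-45563169) encodes IκBε, an inhibitor that is also resynthesised after activation. It was at 20.1 and 31.1 CPM in unstimulated WT and 147 and 126 CPM after R848, and at 7.91 and 17.4 against 85.3 and 79.0 CPM in Padi4 KO. The Padi4 KO libraries lay below the WT libraries of the same treatment without overlap. The log2 fold changes were 2.42 (SE 0.29, adjusted p = 4.15e-20) in WT and 2.57 (SE 0.29, adjusted p = 2.66e-25) in Padi4 KO, the latter 3.35 without Padi4 KO unstimulated replicate 2.

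Among the atypical IκB genes, Nfkbiz and Bcl3 rose less in Padi4 KO than in WT. Nfkbiz (chr16:55811375-55838899) encodes IκBζ, a nuclear coactivator of secondary response genes. It was at 52.6 and 57.0 CPM in unstimulated WT, 644 and 586 CPM in WT after R848, 73.5 and 65.3 CPM in unstimulated Padi4 KO and 413 and 410 CPM in Padi4 KO after R848. The Padi4 KO libraries thus started above the WT ones and ended below them, with no overlap in either treatment. The log2 fold change was 3.49 (SE 0.19, adjusted p = 3.67e-111), or 11.2-fold, in WT and 2.58 (SE 0.14, adjusted p = 4.52e-94), or 5.99-fold, in Padi4 KO.

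Bcl3 (chr7:19808462-19822770) encodes Bcl-3, which binds p50 and p52 homodimers on DNA. It was at 34.0 and 29.4 CPM in unstimulated WT and 63.3 and 55.1 CPM in unstimulated Padi4 KO. After R848 it reached 245 and 250 CPM in WT and 227 and 227 CPM in Padi4 KO. The genotypes were apart before stimulation and close together after it, and the log2 fold change was 2.95 (SE 0.25, adjusted p = 2.51e-43), or 7.74-fold, in WT and 1.95 (SE 0.15, adjusted p = 1.96e-41), or 3.87-fold, in Padi4 KO. An antisense gene covers 6.51% of its exon bases.

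Nfkbid (chr7:30421732-30428746) encodes IκBNS, which represses some cytokine genes and stimulates others. Its level was 41.7 and 41.4 CPM in unstimulated WT and 234 and 273 CPM after R848, and 33.9 and 23.2 against 131 and 117 CPM in Padi4 KO. Both stimulated Padi4 KO libraries lay well below both stimulated WT libraries, and the unstimulated ones also did not overlap. The log2 fold changes were 2.61 (SE 0.23, adjusted p = 3.1e-38) and 2.17 (SE 0.21, adjusted p = 5.3e-29).

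Tnfaip3 and Tnip1 had the largest responses of the 9 genes whose fold change could be estimated. Tnfaip3 (chr10:19000910-19015657) encodes A20, a ubiquitin-editing enzyme that shuts off signalling to IKK. It was at 21.6 and 32.8 CPM in unstimulated WT and 540 and 515 CPM after R848, and at 18.1 and 15.2 against 436 and 372 CPM in Padi4 KO. The log2 fold change was 4.28 (SE 0.26, adjusted p = 5.47e-118), or 19.5-fold, in WT and 4.62 (SE 0.24, adjusted p = 8.25e-167), or 24.5-fold, in Padi4 KO. Only 64 of the 6912 genes with a mean of at least 10 counts had a higher log2 fold change in WT and 42 in Padi4 KO.

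Tnip1 (chr11:54910785-54962917) encodes ABIN1, which binds A20 and ubiquitin chains. It was at 74.2 and 50.1 CPM in unstimulated WT, 986 and 1149 CPM in WT after R848, 52.0 and 46.4 CPM in unstimulated Padi4 KO and 1146 and 1127 CPM in Padi4 KO after R848. The genotypes lay close together after R848, with the lowest value in WT. The log2 fold change was 4.09 (SE 0.17, adjusted p = 1.12e-199) in WT and 4.54 (SE 0.15), or 23.3-fold, in Padi4 KO.

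Tnip3 (chr6:65525313-65634040) encodes ABIN3, another A20-binding protein. No count was seen in any of the 4 unstimulated libraries, and after R848 there were 9 and 5 counts in WT and 51 and 31 counts in Padi4 KO (18.3 and 8.85 against 45.3 and 28.5 CPM). Against the floor of 3 counts over a group, the level was at least 5.56-fold higher after R848 in WT and at least 27.8-fold higher in Padi4 KO, values given as a description with no test. The WT bound was 3.62-fold without WT R848 replicate 1. The floor itself was 2.45 CPM in WT and 1.33 CPM in Padi4 KO, so these bounds cannot be compared directly.

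Cyld (chr8:88697028-88751945) encodes a deubiquitinase that removes chains from several components of the pathway. It was at 94.3 and 94.96 CPM in unstimulated WT and 112 and 106 CPM after R848, and at 64.4 and 63.1 against 95.1 and 88.2 CPM in Padi4 KO. The log2 fold change in WT was 0.20 (SE 0.20, adjusted p = 0.528) and became -0.10 with scaling by library size alone. In Padi4 KO it was 0.53 (SE 0.17, adjusted p = 0.00744), which passed the adjusted p, as 19.2% of all tested genes did in this direction, but not the 2-fold limit.

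**Figure D3:**
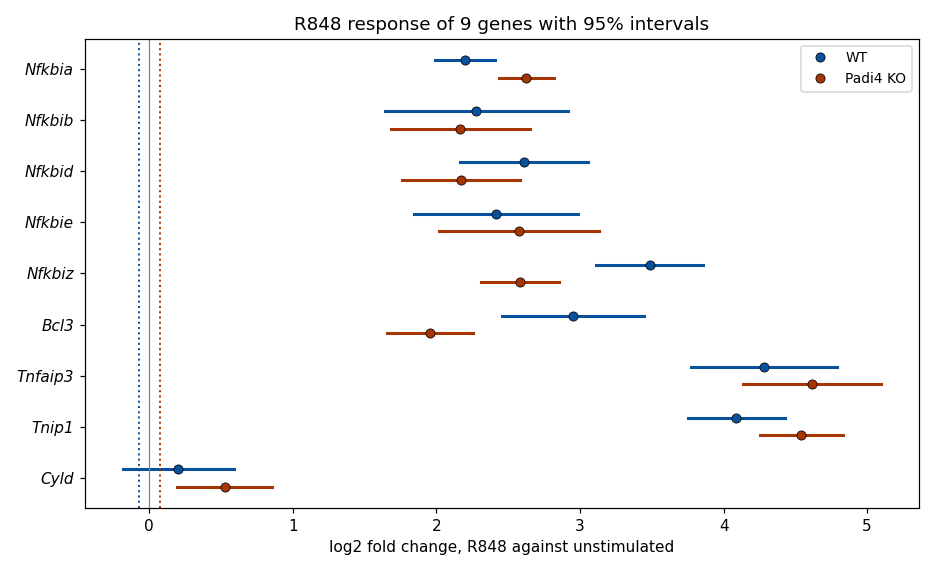
Log2 fold change after R848 in WT and in Padi4 KO for the 9 genes with counts in unstimulated cells, with 95% confidence intervals and a dotted line at the median of the 6912 genes with a mean of at least 10 counts in each genotype. Tnfaip3 and Tnip1 lie above 4 in both genotypes, Nfkbiz and Bcl3 lie lower in Padi4 KO than in WT, and Cyld lies lowest.

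The difference between the responses was tested directly as Padi4 KO minus WT. Of the 9 genes with an estimate, 2 had a smaller response in Padi4 KO, where 1.26% of all tested genes were called in that direction, and 1 had a larger one, where the share was 3.45%. The difference was -0.90 for Nfkbiz (SE 0.23, 95% confidence interval -1.36 to -0.44, adjusted p = 0.00611) and -0.999 for Bcl3 (SE 0.29, interval -1.58 to -0.42, adjusted p = 0.0212). For Nfkbia it was 0.43 (SE 0.14, interval 0.14 to 0.71, adjusted p = 0.0797). The median difference over the 6912 genes was 0.18, and relative to it the values were -1.08 for Nfkbiz, -1.18 for Bcl3 and 0.25 for Nfkbia. With the size factors of DESeq2, under which that median was 0.023, the difference of Nfkbia was 0.27 (adjusted p = 0.656), so that its call was lost, as it was without any 1 of the 8 libraries (0.095 to 0.45). The call of Bcl3 was lost without WT unstimulated replicate 2 (-0.90, adjusted p = 0.166), while that of Nfkbiz held in each alternative run.

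The other 6 genes did not pass the test, and their intervals leave room for sizeable differences. That of Nfkbid, -0.44, had an interval of -1.05 to 0.17 (adjusted p = 0.6), and that of Tnip1, 0.45, one of 0.0086 to 0.90 (adjusted p = 0.363). For Tnfaip3 the difference was 0.33 (interval -0.37 to 1.03) and for Cyld 0.32 (-0.19 to 0.83). Nfkbie and Nfkbib, at 0.16 and -0.11, had intervals of -0.64 to 0.96 and -0.91 to 0.69, and the sign of these 2 and of Tnfaip3 turned when single libraries were left out. No difference could be estimated for Tnip3, which had no unstimulated counts.

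For both genes with a smaller response the genotypes are given within each treatment. For Bcl3 the genotypes differed before stimulation (log2 0.87 for Padi4 KO against WT, SE 0.27, adjusted p = 0.00512), and after R848 the log2 difference was -0.12 (SE 0.13, adjusted p = 0.605). For Nfkbiz the unstimulated difference was 0.33 (SE 0.21, adjusted p = 0.311), which was called with scaling by library size alone (0.61, adjusted p = 0.0279) and without WT R848 replicate 2 (0.48, adjusted p = 0.0998), and after R848 Padi4 KO was lower by a log2 difference of -0.58 (SE 0.096, adjusted p = 9.56e-08). These contrasts share their groups with the responses above and are not independent of them, and the 2 genes were not tested against each other.

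Before stimulation, Padi4 KO neutrophils had lower levels of 3 of the 9 genes with counts, where 14.4% of all tested genes were called lower, and a higher level of 1, where 9.55% were called higher. The lower genes were Nfkbia (log2 -0.63, SE 0.12, adjusted p = 5.46e-06), Nfkbie (-0.88, SE 0.37, adjusted p = 0.0786) and Cyld (-0.57, SE 0.19, adjusted p = 0.0184), and the higher one was Bcl3. Nfkbid was at -0.60 (SE 0.28, adjusted p = 0.126), and was called lower with the filterByExpr filter (-0.58, adjusted p = 0.0981) and without Padi4 KO unstimulated replicate 1 (-0.82, adjusted p = 0.0678). The median over the 6912 genes was -0.16 in this contrast. Relative to it, Nfkbia was at -0.47, Nfkbie at -0.72 and Cyld at -0.41, while Bcl3 was at 1.04. With DESeq2, Nfkbia alone was called lower, and Bcl3 was still called higher. The call of Nfkbie was lost without WT unstimulated replicate 2 (-0.55), without Padi4 KO unstimulated replicate 1 (-0.52; without replicate 2 it was called at -1.65) and without any 1 of the 4 stimulated libraries (-0.75 to -0.73). That of Cyld was lost without either WT unstimulated library (-0.58 and -0.57), without Padi4 KO unstimulated replicate 2 (-0.54) and without either Padi4 KO R848 library (both -0.44). In the same libraries, 10 of 11 neutrophil markers were called lower, and 6 of 7 erythroid and 7 of 9 monocyte markers were called higher, and their part in these differences was not tested.

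After R848, 5 of the 10 genes were lower in Padi4 KO than in WT, where 7.81% of all tested genes were called lower, and 1 was higher, where 9.46% were called higher. The largest fall was that of Nfkbid, by 1.03 on the log2 scale (SE 0.14, adjusted p = 6.15e-12), followed by Nfkbie (-0.72, SE 0.17, adjusted p = 0.000477), Nfkbiz (-0.58) and Tnfaip3 (-0.38, SE 0.099, adjusted p = 0.00174). For Nfkbia the value was -0.20 (SE 0.080, adjusted p = 0.0743), and scaling by library size alone gave 0.013, so that neither its call nor its direction held there. Its call was also lost without either unstimulated Padi4 KO library (both -0.20) and without Padi4 KO R848 replicate 2 (-0.24). The call of Tnfaip3 was lost under scaling by library size alone (-0.17, adjusted p = 0.298).

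Tnip3 was higher in Padi4 KO after R848 by a log2 difference of 1.47 (SE 0.43, 95% confidence interval 0.62 to 2.32, adjusted p = 0.00226). This rests on 14 counts in the 2 WT libraries together. The call was lost with DESeq2 (1.36, adjusted p = 0.303), without WT R848 replicate 2 (0.93, adjusted p = 0.246) and without Padi4 KO R848 replicate 1 (0.98, adjusted p = 0.203). The 4 others did not pass the test: Tnip1 was at 0.09 (SE 0.080), Bcl3 at -0.12 (SE 0.13), Nfkbib at -0.18 (SE 0.18) and Cyld at -0.25 (SE 0.18). Tnip1 was called higher with library size alone (0.30, adjusted p = 0.00297), and its sign turned with DESeq2 (-0.012). The sign also turned for Bcl3 (0.090) and Nfkbib (0.032) with library size alone. In these libraries 7 of 11 neutrophil markers were called lower and all 7 erythroid and 4 of 9 monocyte markers higher in Padi4 KO, and their part was not tested.

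**Figure D4:**
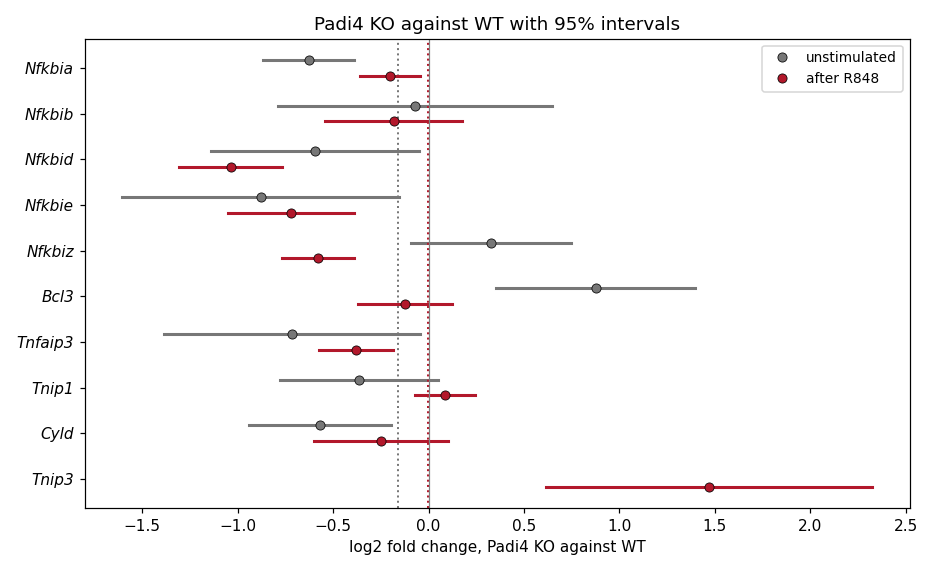
Log2 difference of Padi4 KO against WT for each gene, unstimulated and after R848, with 95% confidence intervals. Nfkbia, Nfkbid, Nfkbie, Nfkbiz and Tnfaip3 lie below 0 after R848 with intervals that leave 0 out, Bcl3 lies above 0 only without stimulation, and Tnip3 lies above 0 after R848 and has no unstimulated value.

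Ratios within a library do not depend on how libraries were scaled. For every 100 counts of Nfkbia there were 20.2 and 22 counts of Nfkbiz in unstimulated WT and 42.2 and 40 in unstimulated Padi4 KO. After R848 the ratio was 56.4 and 47.2 in WT and 38.2 and 41.3 in Padi4 KO. It was thus higher after R848 in WT, while the stimulated and unstimulated Padi4 KO libraries overlapped. Per 100 counts of Tnip1, Nfkbiz was lower after R848 in both genotypes, at 70.8 and 114 against 65.3 and 51.0 in WT and 141 and 141 against 36.0 and 36.4 in Padi4 KO.

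The ratio of Bcl3 to Nfkbia moved in opposite directions in the genotypes. It was 13.1 and 11.3 per 100 counts in unstimulated WT and 21.4 and 20.1 after R848, against 36.4 and 33.8 in unstimulated Padi4 KO and 20.9 and 22.9 after R848. The ratios of the genotypes overlapped after stimulation and not before it. The directions depend on the gene used as the denominator: per 100 counts of Tnip1, Bcl3 went from 45.8 and 58.6 to 24.8 and 21.7 in WT and from 122 and 119 to 19.8 and 20.1 in Padi4 KO, lower after R848 in both. For Nfkbid the ratio was 20.5 and 22.0 in WT and 12.2 and 11.8 in Padi4 KO after R848, with overlap before stimulation. Tnip1 rose from 28.6 and 19.3 to 86.4 and 92.6 per 100 Nfkbia counts in WT and from 29.9 and 28.4 to 106 and 114 in Padi4 KO. These ratios were not tested, and they also carry the changes of Nfkbia itself.

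**Figure D5:**
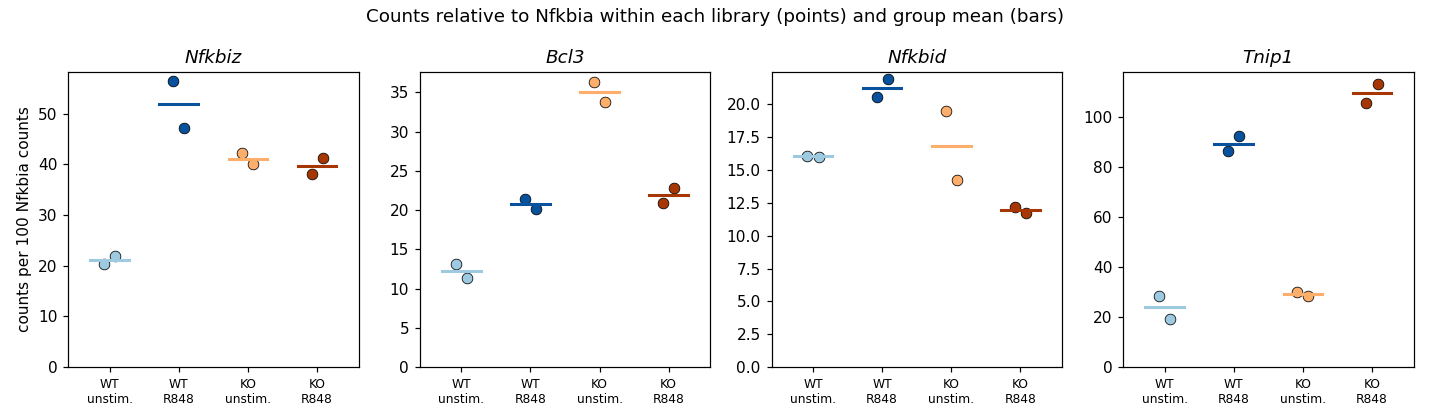
Counts of Nfkbiz, Bcl3, Nfkbid and Tnip1 for every 100 counts of Nfkbia in each of the 8 libraries, by group. After R848 the Bcl3 ratio is 20.1 to 22.9 in both genotypes, and the Nfkbid ratio is at or below 12.2 in Padi4 KO and at or above 20.5 in WT.

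Levels can be compared between genes only per length, here as CPM per kb of merged exons. Nfkbia was highest in every group, at 161 ± 0.328 CPM per kb (SD, n = 2) in unstimulated WT and 740 ± 43.8 after R848. In unstimulated WT the next genes, Nfkbid at 17.7 and Tnip1 at 17.6 ± 4.82 CPM per kb, did not differ beyond their spread. After R848 Tnip1 came second in both genotypes, at 302 ± 32.5 CPM per kb in WT and 321 ± 3.86 in Padi4 KO. The following genes in WT were Nfkbiz at 123 ± 8.17, Nfkbid at 108 ± 11.5 and Bcl3 at 99.8 ± 1.45 CPM per kb. The libraries of Nfkbid and Bcl3 overlapped, and those of Nfkbiz and Nfkbid lay close together without overlap. In Padi4 KO that order was Bcl3 at 91.6 ± 0.130, Nfkbiz at 82.0 ± 0.454, Tnfaip3 at 55.9 ± 6.26 and Nfkbid at 52.9 ± 4.45 CPM per kb, the last pair with overlapping libraries. Cyld, at 8.68 in WT and 7.29 in Padi4 KO, and Tnip3, at 1.25 and 3.38 CPM per kb, were lowest after R848. The value of Tnip3 rests on the 10916 exon bases of the longer GENCODE model. A shorter model would raise it, so its place in the order is uncertain.

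The genes that these proteins act on, or act with, were counted from lists of the pathway. The alternatives were run for the 10 genes above and not for these lists, so their differences of response stand beside a median of 0.18 over the 6912 genes, and over all genes the number called higher in that contrast was 423, against 35 with DESeq2. All 5 NF-kB subunit genes were called higher after R848 in both genotypes, beside 7.17% of all tested genes in WT and 8.07% in Padi4 KO, led by Relb (log2 5.63 in WT, SE 0.48, and 5.13 in Padi4 KO, SE 0.35) and Nfkb2 (4.36 and 4.35). None of the 5 responses was called different between the genotypes, beside 3.45% of all tested genes called higher and 1.26% called lower. The interval for the difference of Relb was wide, at -1.67 to 0.66. After R848, 4 of the 5 were lower in Padi4 KO, beside 7.81% of all tested genes, among them Rel (-1.04, adjusted p = 0.000873) and Nfkb2 (-0.51, adjusted p = 3.51e-07). Of the 10 genes for the IKK and TAK1 kinases, 3 were called higher in WT and 2 in Padi4 KO, beside the same 7.17% and 8.07%. The largest rise was that of Ikbke (5.61 in WT and 5.77 in Padi4 KO), with a difference of 0.16 (SE 0.26, adjusted p = 0.888). Tbk1 (1.39 and 0.92) passed the 2-fold limit in WT alone, and its difference, -0.47, was not called (adjusted p = 0.511). Ikbkg, which encodes the IKK scaffold NEMO, had log2 fold changes of 2.36 and 3.11 and a larger response in Padi4 KO (0.75, SE 0.24, adjusted p = 0.0483), and its unstimulated level was lower there (-0.98, SE 0.21).

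Of 11 genes for A20 partners and linear ubiquitin enzymes, 2 were called higher in WT and 1 in Padi4 KO, beside 7.17% and 8.07% of all tested genes. Rnf11 (1.04 and 0.91) passed the 2-fold limit in WT alone. None of the 11 had a called difference of response, beside 1.26% of all tested genes called lower and 3.45% called higher. Otulin, which encodes a deubiquitinase for linear chains, rose in both (1.59 and 1.13). Of 9 further genes that restrain NF-kB, 2 were called higher in WT and 3 in Padi4 KO, beside the same shares. Zc3h12a, which encodes the ribonuclease Regnase-1, had log2 fold changes of 3.62 and 4.06, and N4bp1 had 2.44 and 2.65. Tnfaip8l2 had a difference of response of 0.70 (adjusted p = 0.0871), while its WT response, -0.22, did not pass the test.

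Of 16 tested NF-kB target genes, the response of 2 was smaller and that of 1 larger in Padi4 KO, beside 1.26% and 3.45% of all tested genes. Il1b, the gene for interleukin-1β, rose by 5.99 in WT and 3.48 in Padi4 KO on the log2 scale (difference -2.51, SE 0.16, adjusted p = 4.02e-57), and Cxcl2, a neutrophil chemokine gene, by 3.58 and 1.61 (difference -1.97, SE 0.24, adjusted p = 1.92e-13). Il1b was higher in Padi4 KO before stimulation (1.70, SE 0.15, adjusted p = 1.04e-31) and lower after it (-0.80, SE 0.066, adjusted p = 4.34e-31), while for Cxcl2 the unstimulated value was 0.012 (adjusted p = 0.99). Gadd45b rose more in Padi4 KO (difference 1.03, SE 0.33, adjusted p = 0.0499), with an unstimulated level that was lower there (-1.03, SE 0.30, adjusted p = 0.00541) and a value of -0.0053 (SE 0.12) after R848. After R848, 9 of the 16 were lower in Padi4 KO and none was higher, beside 7.81% and 9.46% of all tested genes. Before stimulation 4 were already lower and 1 was higher, beside 14.4% and 9.55%. Over the 13 with a mean of at least 10 counts, the median genotype difference was -0.77 before stimulation and -0.49 after R848. Of 5 genes known as IκBζ targets, only Lcn2 had counts in the unstimulated libraries. Lcn2, the gene for lipocalin-2, rose by 1.49 and 1.65, with a difference of response of 0.16 (SE 0.083, adjusted p = 0.395). Its level was lower in Padi4 KO both before stimulation (-0.57, SE 0.059, adjusted p = 2.37e-19) and after R848 (-0.41, SE 0.058, adjusted p = 1.35e-10). Csf3, named after its values were seen, was at 7.08 and 12.2 CPM in WT and 0 and 3.68 CPM in Padi4 KO after R848 (adjusted p = 0.0674). It had no unstimulated counts and met the filter through the WT R848 libraries, where it was high, so its call is not counted. For Padi4 KO against WT after R848, Il12b, at -0.36 (SE 0.30), and Il6, which did not exceed the floor in either genotype, did not pass the test.

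Genes with profiles most like those of 5 of the genes were found by Pearson's correlation of log2 CPM over the 8 libraries, among about 2918 genes with a mean of at least 50 counts. The 8 libraries share a large difference between treatments, so that high values are common, and no test was made. The profile of Nfkbia was nearest to those of Ptpn1 (r = 0.999), Ctsd and Prdx5, that of Tnfaip3 to Tnf (0.9995), Pla2g7 and Ccl3, and that of Nfkbiz to Smox (0.9985), Mpeg1 and Slc3a2. Nfkbid was nearest to Ier5 (0.9965), Bcl10 and Cd9 and Nfkbie to Fam134b (0.994), Acot9 and Ccnl2.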

How the data were processed

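The authors trimmed reads (cutadapt 1.16, after FastQC 0.11.7), mapped them to mm10 with STAR 2.5.3a and counted them on genes with HTSeq 0.6.1p1. The annotation and strand setting are not given in the sources used here. The deposited table holds raw counts by gene symbol, and its 5 summary lines were left out. Genes with at least 1 count in at least 2 libraries were fitted in R 4.3.3 with edgeR 4.0.16 (TMM factors, 1 mean a group over all 8 libraries, robust quasi-likelihood test, Benjamini-Hochberg adjustment). Calls used a false discovery rate of 0.1 and, for responses, more than 2-fold. DESeq2 1.42.0, the tool of the paper, other scalings, filters and thresholds, the replicate block and leaving out each library were alternatives. A lone library was then assumed to vary like the other groups.

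The pathway lists, like the members, were chosen with earlier results of these data known. Named besides the members were Padi4, genes of each list with the smallest p for the difference of response or the largest WT change, and the 3 genes most like each of 6 members, of which the result for 1 member is not reported here. An exact permutation test of 2 against 2 libraries cannot go below 0.333, so p-values rest on spread shared across genes. Duplicates differed beyond counting noise, those of WT R848 most, and the excess was small in the other groups (chi-square over its degrees of freedom 1.05 to 1.16). The common coefficient of variation between libraries beyond counting noise, as estimated by edgeR, was 4.68%. Such a small spread need not reflect that between mice.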

Additional observations from a re-analysis of the deposited data

Results flagged for a closer look

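The R848 response differed between the genotypes for 3 of the genes by the test of the difference itself (edgeR's quasi-likelihood test, Benjamini-Hochberg adjustment). The log2 difference, Padi4 KO minus WT, was -0.999 for Bcl3 (adjusted p = 0.0212), -0.90 for Nfkbiz (adjusted p = 0.00611) and 0.43 for Nfkbia (adjusted p = 0.0797). The value of Nfkbiz ran from -1.20 to -0.84 over the alternatives, with adjusted p-values from 3.36e-05 to 0.0995, and that of Bcl3 from -1.29 to -0.90, with adjusted p-values from 0.0013 to 0.166. The call of Nfkbia was lost with DESeq2, relative log expression factors, library size alone, a false discovery rate of 0.05 and without any 1 library (0.095 to 0.45). The WT R848 libraries, which enter the WT response and every difference of response, differed from each other more than the other pairs did (chi-square over its degrees of freedom 1.67, against 1.05 to 1.162), and 2 libraries do not show which of them stands apart.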

How the results depend on the processing

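With Tnip3 left out, 8 genes were called in the R848 response of each genotype under every alternative run, except that 9 were in Padi4 KO with no minimum fold, where Cyld was added. Of the differences of response, the 1 gene called higher (Nfkbia) fell to 0 with DESeq2, relative log expression factors, library size alone and a false discovery rate of 0.05, and to 0 (range 0 to 0) when any 1 library was left out, where its value ran from 0.095 to 0.45. The 2 called lower ranged from 1 to 2 when a library was left out. For Padi4 KO against WT without stimulation, the 1 gene called higher became 2 with library size alone and 1 to 2 when a library was left out, and the 3 called lower became 1 with DESeq2, 1 with library size alone, 4 with filterByExpr, where Nfkbid was added, 2 with relative log expression factors or a false discovery rate of 0.05, and 1 to 3 when a library was left out (1 without WT unstimulated replicate 2, Padi4 KO R848 replicate 1 or Padi4 KO R848 replicate 2). After R848, the 1 called higher (Tnip3) became 0 with DESeq2, 2 with library size alone and 0 to 1 when a library was left out, and the 5 called lower became 3 with library size alone and 4 to 5 when a library was left out. Library size alone reversed Cyld in the WT response (-0.10), Nfkbib unstimulated (0.21) and, after R848, Nfkbia (0.013), Nfkbib (0.032) and Bcl3 (0.090), as the median over genes moved with it, from -0.16 to 0.12 without stimulation and from -0.0019 to 0.21 after R848. Tnip1 after R848 was -0.012 with DESeq2 and -0.014 with relative log expression factors. Leaving out a library reversed uncalled values, with ranges of -0.53 to 0.80 for Nfkbib, -0.20 to 0.93 for Nfkbie and -0.029 to 0.61 for Tnfaip3 in the difference of response, -0.98 to 0.33 for Nfkbib without stimulation and -0.16 to 0.12 for Tnip1 after R848; the cause was not tested. Over all genes, 577 differences of response were called (423 higher, 154 lower) against 125 with DESeq2 (35 and 90), 393 with relative log expression factors (160 and 233) and 425 with library size alone (255 and 170).

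Same-numbered libraries did not deviate together (correlations of -0.0194 to 0.0207 over 6912 genes), so the numbers were not taken as pairs, and the replicate block changed no call of the 10 genes, with the difference of response at -0.91 for Nfkbiz (adjusted p = 0.00512), -1.004 for Bcl3 (adjusted p = 0.0203) and 0.42 for Nfkbia (adjusted p = 0.0758). Depth limits the unstimulated levels, with 0 to 35 counts in each library for Tnip3, Nfkbib, Nfkbie, Tnfaip3 and Nfkbid, and in unstimulated WT with 22 and 17 counts for Bcl3 and 34 and 33 for Nfkbiz.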
